A study of Mus musculus with 4 samples.

Results

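Enzymes that oxidise, hydrolyse or conjugate drugs, pollutants and related endogenous compounds were followed in mouse lung fibroblasts at 4 ages, sorted by Pdgfra, which encodes a receptor of platelet-derived growth factor. The genes were chosen by name: cytochromes P450 of families 1 to 4, flavin monooxygenases, aldehyde oxidases, carboxylesterases, epoxide hydrolases, glutathione transferases, sulfotransferases and UDP-glycosyltransferases. The club cell P450 Cyp2f2 was left out. The pattern matched 165 of 23444 gene symbols, and 42 of these reached 1 FPKM (fragments per kilobase of transcript, normalised to the size of the library) in at least 1 library. Of the other symbols 90 stayed above 0 but under 1 FPKM and 33 were listed at 0 in all 4 libraries.

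All cells came from lungs of C57BL6 mice of WT genotype, collected from timed pregnancies, at embryonic days 16.5 and 18.5 (E16.5 and E18.5) and postnatal days 7 and 28 (P7 and P28). There was 1 library per age and no treatment. The labels do not say how many animals went into a library, nor which reagent or reporter marked the sorted cells. The spread between animals is therefore unknown, and each difference is one between 2 libraries, described by its size, with no test. In bulk samples, fewer cells of a type and less RNA per cell cannot be told apart.

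Xenobiotic metabolism runs in steps. P450s and flavin monooxygenases insert oxygen into lipophilic compounds, and esterases and epoxide hydrolases split them with water. Transferases then attach glutathione, sulfate or a sugar, which makes the product soluble and ready for export. The liver is the main site, but the lung meets inhaled compounds directly, and its best known P450 activity lies in the club cells of the airways. Several of these enzymes also act on steroids, retinoids, fatty acids or products of lipid peroxidation.

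The libraries differ in scale and in the cells they hold. Median-ratio scaling, which sets the typical gene equal between libraries, gave factors of 1.15, 0.582, 1.38 and 1.08 in order of age, so the typical gene is low at E18.5 as deposited, and each count is given on both scales. FPKM holds no read totals. Relative depth was estimated from the most frequent ratio between libraries of values under 0.1 FPKM. By this estimate the depth of E18.5 was about 0.719 times, that of P7 1.05 times and that of P28 0.949 times the depth of E16.5. Pdgfra was at 88.7, 95.9, 113 and 188 FPKM in order of age, and all 8 fibroblast markers were above 0 in every library, with summed levels of 1965, 1608, 3271 and 7658 FPKM. The 9 club and airway markers, which include Cyp2f2, summed to 3.13, 34.3, 27.7 and 19892 FPKM, and the 8 alveolar type 2 markers to 28.4, 115.5, 23.2 and 12506. The 8 endothelial markers summed to 23.2, 29.3, 1088 and 264 FPKM. The 8 leukocyte markers summed to 1363, 65.7, 19.4 and 5065 FPKM, of which Lyz2, which type 2 cells also express, made up 5062 at P28, and the 6 erythroid markers to 5.88, 487, 21.3 and 1.65. Epithelial markers were thus highest at P28, endothelial markers at P7, erythroid markers at E18.5 and, Lyz2 aside, leukocyte markers at E16.5. The 4 alveolar type 1 markers summed to 3.54, 8.02, 13.6 and 64.4 FPKM and the 5 mesothelial markers to 2.20, 10.1, 47.1 and 132, both highest at P28. The 5 pericyte markers summed to 17.8, 26.5, 29.8 and 19.1 FPKM.

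P28 was the age at which most of these enzymes were highest. Counting only members that reached 5 FPKM and whose extreme libraries were 2-fold apart or more, 21 of 25 had their highest value at P28, 2 each at E18.5 and P7, and 0 at E16.5. P28 held the maximum for 26% of the 6361 genes classed in the same way. After scaling it was 18 of 24 members, beside 35.1% of 3920 genes, with 5 members highest at E18.5 and 1 at P7. The minimum itself fixed part of this count, since 8 of the 25 members reached 5 FPKM at P28 alone (7 of 24 after scaling). Of the 16 members that reached it in 2 or more libraries, a condition added after the values were seen, 13 were highest at P28 (11 of 16 after scaling), beside 22.8% of the 4907 genes that did so (31% of 2753). The summed level of the 42 members was 134 FPKM (E16.5), 268 (E18.5), 370.5 (P7) and 1205 (P28), which was 9.02 times the sum at E16.5 (9.59 after scaling). As a share of all FPKM it was 0.0742%, 0.267%, 0.19% and 0.547%.

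The members in the sum were not the same at each age. Gstm1, Gsto1 and Fmo2 led at E16.5, where the leading 3 made up 32.6% of the sum. Fmo2 alone made up 53.9% at E18.5. Fmo1, Gstm1 and Cyp4b1 led at P7, and Gstm1, Fmo2 and Ces1d at P28. The number of members at 1 FPKM or more was 21, 20, 30 and 38 in order of age, beside 10752, 8602, 10848 and 10913 of all symbols. At 5 FPKM or more it was 9, 9, 14 and 25 members as deposited, and the same was not counted over all genes. The choice of members shaped both counts, since 9 members reached 1 FPKM and 8 reached 5 FPKM at P28 alone.

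**Figure D1:**
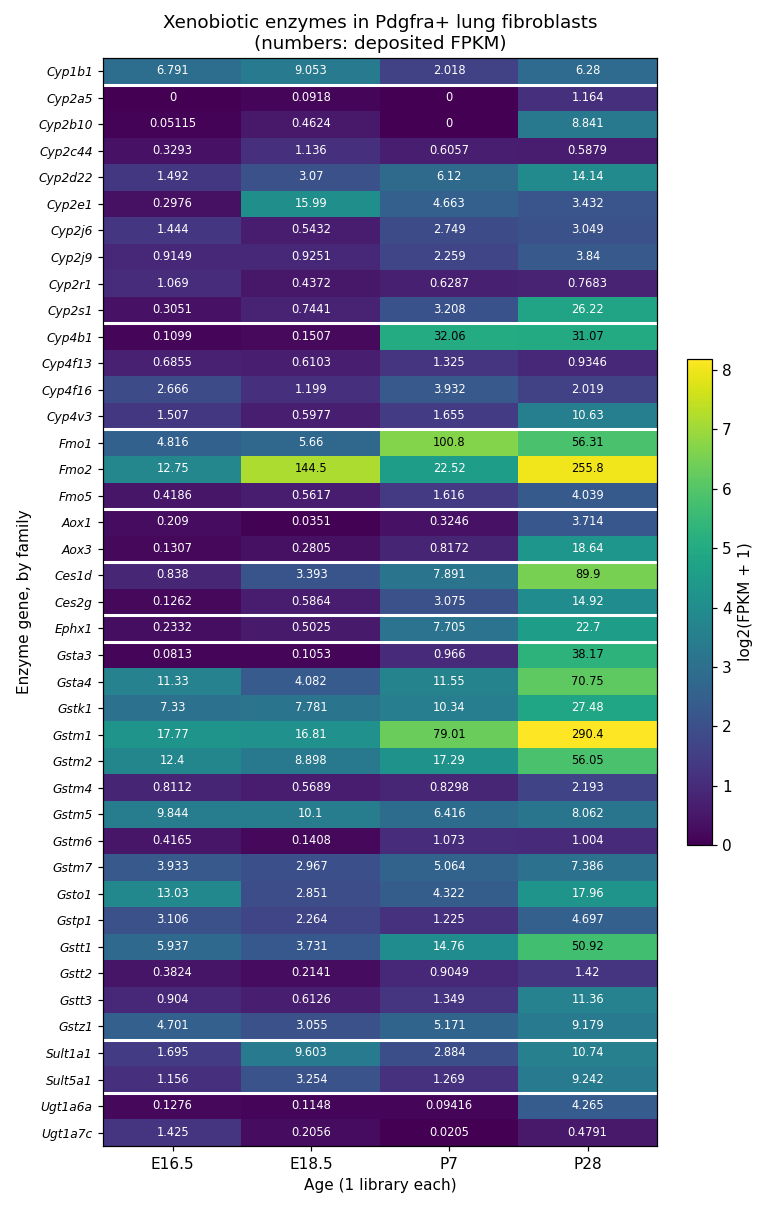
Deposited FPKM (numbers) of 41 of the 42 enzyme genes (rows, by family, white lines between families) in the 4 libraries (columns, 1 per age), coloured by log2(FPKM + 1). The P28 column holds the highest value for most rows, led by Gstm1 and Fmo2, while Cyp2e1 stands out at E18.5 and Fmo1 and Cyp4b1 at P7.

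Members were compared between ages on log2(FPKM + 1). Calls of higher or lower needed a difference of 1 or more (2-fold) and 5 FPKM in the upper of the compared libraries. At P28 against P7, 20 of 42 members were higher and 0 lower, with a median log2 difference of 1.34 against -0.23 over all 12561 genes at 1 FPKM or more. The same rule called 5.95% of all genes higher and 9.57% lower. At P28 against E16.5, 20 members were again higher and 0 lower, with a median of 2.03 against -0.03, and the rule called 10.1% of all genes higher and 9.51% lower. After scaling both counts were again 20 and 0, beside 7.4% and 5.21% of all genes for P28 against P7 and 10.4% and 7.92% for P28 against E16.5. Of the 42 members 37 lay above their E16.5 level at P28, on either scale. The 2 comparisons share the P28 library.

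The 1 FPKM minimum itself favours genes that are high somewhere. Of the 42 members 9 passed it at P28 alone, 2 at E16.5 alone, and 1 each at E18.5 alone and P7 alone. Among the 17 members that reached 1 FPKM in every library, 10 were higher and 0 lower at P28 against E16.5, beside 10.7% and 10.3% of the 7930 genes that met the same condition. At P28 against P7 it was 11 and 0, beside 5.37% and 11.6%. The values just inside the minimum were those of Cyp2r1 (highest value 1.07 FPKM), Gstm6 (1.07), Cyp2c44 (1.14) and Cyp2a5 (1.16), and just outside were Cyp4f18 (0.955), Cyp3a13 (0.942), Cyp1a1 (0.915) and Ephx2 (0.887).

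The comparisons with E18.5 gave smaller counts that moved with the scale. At E18.5 against E16.5, 3 members were higher and 2 lower as deposited, when 1.11% of all genes were higher and 22.6% lower. After scaling 8 were higher and 1 lower, beside 4.48% and 5.83%. Between the same libraries all 8 leukocyte markers were lower and 4 of the 5 erythroid markers at 1 FPKM or more were higher, on both scales. Of the 8 alveolar type 2 markers 2 were higher (3 after scaling) and 0 lower. The part of these cell types in the counts of members was not tested. At P7 against E18.5, 7 members were higher and 4 lower, when 33.3% of all genes were higher and 1.52% were lower. Scaling gave 3 higher and 6 lower, beside 7.18% and 5.86%. P7 was compared directly with E16.5 as well, which was not planned at first, and there 7 members were higher and 2 lower (8.84% and 3.75% of all genes), or 5 and 2 after scaling (6.02% and 4.71%).

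**Figure D2:**
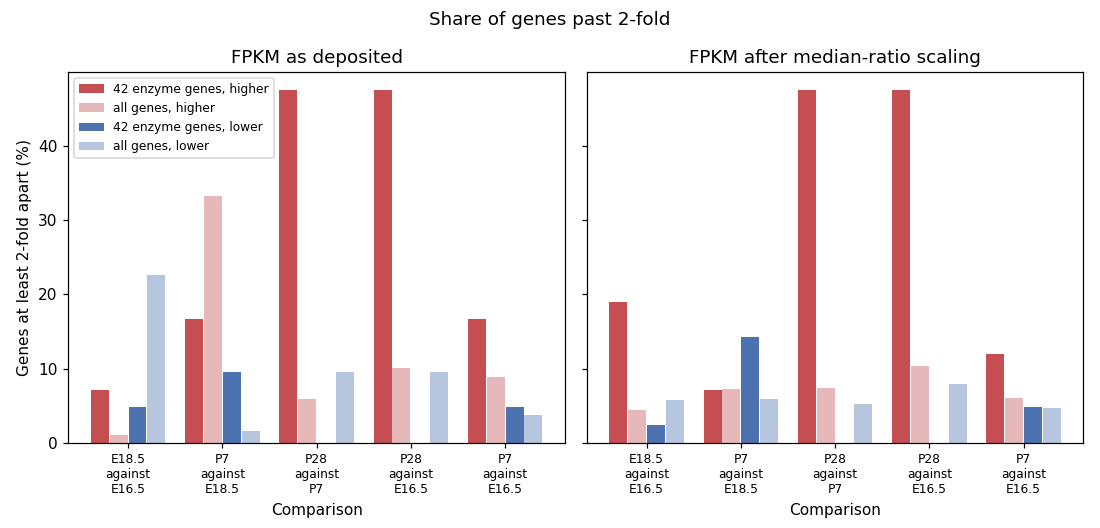
Percentage of the 42 enzyme genes (full colour) and of all 12561 genes (pale) at least 2-fold higher (red) or lower (blue) in each comparison, for deposited FPKM (left) and after median-ratio scaling (right). The enzyme genes reach 47.6% higher and 0% lower at P28 against P7 and against E16.5 in both panels.

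The P450 family 1 gene that passed was Cyp1b1, which oxidises polycyclic hydrocarbons and oestrogens and is typical of mesenchymal cells. It was at 6.79 FPKM (E16.5), 9.05 (E18.5), 2.02 (P7) and 6.28 (P28). P7 was the low point, with log2 differences of -1.74 against E18.5 and 1.27 for P28 against P7 (-2.75 and 1.47 after scaling). Cyp1a1, a classic target of the aryl hydrocarbon receptor, stayed under 1 FPKM in all 4 libraries. The receptor gene Ahr itself was at 4.43, 1.24, 56.9 and 6.48 FPKM in order of age, so its high point was the age at which Cyp1b1 was lowest. Its repressor Ahrr was at 0.228 FPKM or less throughout. The 8 endothelial markers, which summed to 23.2, 29.3, 1088 and 264 FPKM, were also highest at P7. Their part in the level of Ahr was not tested.

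Promoters of 5 members are shown because these genes bracket the time courses: Cyp1b1 was lowest at P7, Cyp2e1 peaked at E18.5, Fmo2 was high at E18.5 and P28, and Gsta3 and Gstm1 were highest at P28. Each window runs from 250 bases before to 50 after a RefSeq start on GRCm38.p6, 5′ to 3′ on the strand of the gene. Capitals mark GCGTG, the core bound by the aryl hydrocarbon receptor, TGACNNNGC, the antioxidant response core bound by Nfe2l2, and TATAAA, the TATA box, on either strand. Fmo2 and Gstm1 have 2 windows each, of which the upstream one is shown for Fmo2 and the downstream one for Gstm1. They lie at chr17:79715012-79715311 (minus strand), chr7:140763569-140763868 (plus), chr1:162898709-162899008 (minus), chr1:21240335-21240634 (plus) and chr3:108017769-108018068 (minus), in that order.
Cyp1b1: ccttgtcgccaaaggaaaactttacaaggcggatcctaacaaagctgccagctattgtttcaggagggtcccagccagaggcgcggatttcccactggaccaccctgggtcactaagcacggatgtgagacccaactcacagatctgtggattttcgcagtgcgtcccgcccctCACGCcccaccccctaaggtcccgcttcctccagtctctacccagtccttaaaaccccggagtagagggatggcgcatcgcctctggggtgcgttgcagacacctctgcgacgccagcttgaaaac
Cyp2e1: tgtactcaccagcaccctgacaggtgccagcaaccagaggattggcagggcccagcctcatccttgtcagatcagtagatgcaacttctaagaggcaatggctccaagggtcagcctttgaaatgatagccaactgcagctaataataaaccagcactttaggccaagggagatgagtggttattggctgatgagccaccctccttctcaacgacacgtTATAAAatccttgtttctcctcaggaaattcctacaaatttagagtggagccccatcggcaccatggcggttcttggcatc
Fmo2: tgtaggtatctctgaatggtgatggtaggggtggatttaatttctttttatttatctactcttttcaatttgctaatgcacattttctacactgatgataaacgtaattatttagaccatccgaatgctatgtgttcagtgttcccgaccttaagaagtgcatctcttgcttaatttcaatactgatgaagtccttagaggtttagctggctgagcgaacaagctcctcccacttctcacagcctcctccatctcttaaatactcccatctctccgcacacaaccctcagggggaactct
Gsta3: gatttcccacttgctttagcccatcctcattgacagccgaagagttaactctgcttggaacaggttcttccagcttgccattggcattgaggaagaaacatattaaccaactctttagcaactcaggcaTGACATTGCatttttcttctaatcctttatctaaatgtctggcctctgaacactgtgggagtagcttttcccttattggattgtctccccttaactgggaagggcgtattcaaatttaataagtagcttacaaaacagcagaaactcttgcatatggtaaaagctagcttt
Gstm1: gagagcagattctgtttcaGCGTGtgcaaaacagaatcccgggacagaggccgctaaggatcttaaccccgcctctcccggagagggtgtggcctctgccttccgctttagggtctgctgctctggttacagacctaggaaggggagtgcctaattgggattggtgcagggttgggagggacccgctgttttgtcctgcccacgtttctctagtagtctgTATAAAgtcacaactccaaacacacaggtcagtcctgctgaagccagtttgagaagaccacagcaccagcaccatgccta

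Cyp1b1 and Gstm1 each held 1 GCGTG, Gsta3 held 1 TGACNNNGC, and Cyp2e1 and Gstm1 each held 1 TATAAA, while neither Fmo2 window held any of the 3. RefSeq windows were found for 35 of the 42 members, 43 windows in all. GCGTG was in 27.9% of these windows and in 32.4% of all 32851 windows, TGACNNNGC in 9.3% and 12.4%, and TATAAA in 16.3% and 13.6%. The 3 shares were close to those of promoters at large.

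P450 family 2 was the largest family by name, with 47 symbols, of which 9 passed. Cyp2e1, which oxidises ethanol and small solvents, had its highest value just before birth. It was at 0.298 FPKM (E16.5), 16.0 (E18.5), 4.66 (P7) and 3.43 (P28), a log2 difference of 3.71 for E18.5 against E16.5 (4.50 after scaling). Within a library, where no scaling matters, its level over that of Cyp2d22 was 0.199, 5.21, 0.762 and 0.243.

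Cyp2d22, the mouse relative of the human debrisoquine hydroxylase, was higher at each successive age as deposited, at 1.49, 3.07, 6.12 and 14.1 FPKM (after scaling E18.5 lay above P7, at 5.27 and 4.43). Cyp2s1, a P450 of epithelia outside the liver, was under 1 FPKM in both fetal libraries, at 0.305 and 0.744, and at 3.21 (P7) and 26.2 (P28). Cyp2b10, a target of the nuclear receptor CAR in liver, was at 0.0512 FPKM (E16.5), 0.462 (E18.5), listed at 0 (P7) and at 8.84 (P28). Cyp2a5, which oxidises coumarin and nicotine, was listed at 0 at E16.5 and P7 and reached 1.16 at P28. Nr1i3, the gene for CAR, was itself at 0.105 FPKM at E16.5 and listed at 0 in the other libraries.

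The remaining members of family 2 act mainly on endogenous lipids and vitamin D, and none reached 5 FPKM. The arachidonate epoxygenases Cyp2j6 and Cyp2j9 had their highest values at P28, at 3.05 and 3.84 FPKM. Cyp2c44, also an epoxygenase, was highest at E18.5, at 1.14, and the vitamin D 25-hydroxylase Cyp2r1 at E16.5, at 1.07.

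No symbol of family 3, whose enzymes clear many drugs in liver, passed the minimum among 7 matched. In family 4, Cyp4b1, a lung P450 that oxidises fatty acids and activates furan toxins, was near the bottom of the range before birth and abundant after it. It was at 0.110 FPKM (E16.5), 0.151 (E18.5), 32.1 (P7) and 31.1 (P28) (GRCm38 chromosome 4, 115624725 to 115647723, minus strand). Both postnatal libraries stood apart from both fetal ones, with log2 differences of 4.84 for P7 against E18.5 and -0.04 for P28 against P7 (4.27 and 0.30 after scaling). Cyp4v3, a fatty acid omega-hydroxylase, was at 1.51, 0.598, 1.66 and 10.6 FPKM and so was high at P28 alone. The leukotriene hydroxylase relatives Cyp4f13 and Cyp4f16 stayed between 0.610 and 3.93 FPKM.

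Airway markers of the same libraries were compared with Cyp4b1. Scgb1a1, the most abundant of them, had 25.4 FPKM (E18.5) and 26.2 (P7). Of the 8 airway markers that reached 1 FPKM, 0 were called higher at P7 than at E18.5, on either scale. Only Scgb1a1 reached the FPKM minimum for a call in these libraries, so the count cannot decide for the other markers. The median log2 difference over the 8 markers, P7 against E18.5, was -0.31 (-1.04 after scaling). Cyp2f2 had 2.79 FPKM (E18.5) and 0.443 (P7). At P28, where Cyp4b1 was at 31.1, Scgb1a1 was at 19258 and Cyp2f2 at 283. All 8 endothelial markers were at least 2-fold higher at P7 than at E18.5. Of 5 mesothelial markers 3 were higher and 0 lower (2 and 1 after scaling). The part of airway, endothelial or mesothelial cells in the level of Cyp4b1 was not tested.

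The flavin monooxygenases oxidise nitrogen and sulfur atoms of drugs, and Fmo2 is the main form in the lung of most mammals. Fmo2 was at 12.7 FPKM (E16.5), 144.5 (E18.5), 22.5 (P7) and 256 (P28). E18.5 and P28 were the high libraries and E16.5 and P7 the low ones, with log2 differences of 3.40, -2.63 and 3.45 between successive ages (4.37, -3.85 and 3.78 after scaling, which also puts E18.5 above P28, at 248 against 236). The 8 alveolar type 2 markers summed to 28.4, 115.5, 23.2 and 12506 FPKM, also higher at E18.5 and P28. Of these markers 2 were called higher at E18.5 than at E16.5 and 2 lower at P7 than at E18.5 (3 and 3 after scaling). Their part in the level of Fmo2 was not tested.

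Fmo1 followed another course. It was at 4.82 FPKM (E16.5), 5.66 (E18.5), 101 (P7) and 56.3 (P28), so both postnatal libraries were high and P7 was highest. The log2 difference for P7 against E18.5 was 3.93 (2.79 after scaling). All 8 endothelial markers were also higher at P7 than at E18.5, and all 8 were lower at P28 than at P7, on both scales. Their part in the level of Fmo1 was not tested. The ratio of Fmo2 to Fmo1 inside each library was 2.65, 25.5, 0.223 and 4.54, and P7 was the only one of the 4 ages at which Fmo1 was the more abundant. These genes are neighbours on chromosome 1 of GRCm38, Fmo1 from 162829561 to 162866610 and Fmo2 from 162874317 to 162898726, both on the minus strand.

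Fmo5, an atypical form that inserts oxygen next to ketones, was at 0.419, 0.562, 1.62 and 4.04 FPKM.

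**Figure D3:**
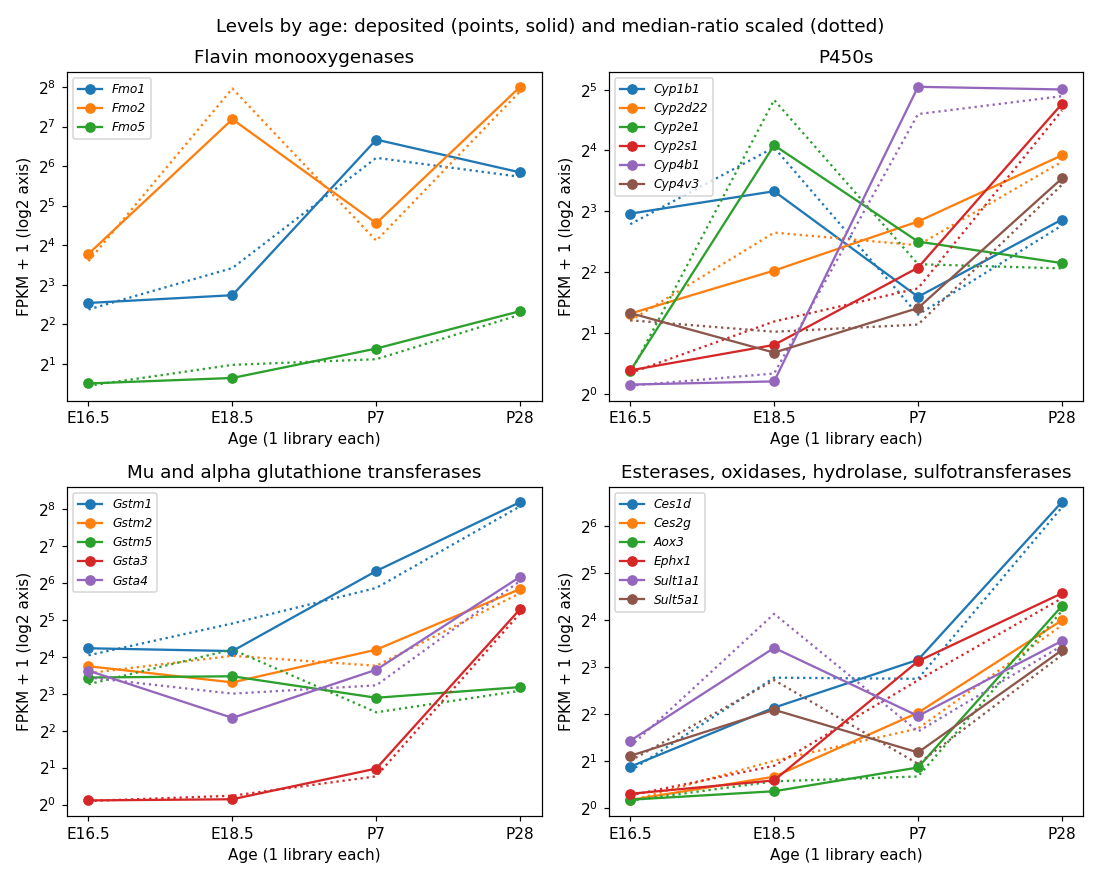
Levels of 20 enzyme genes by age, 1 library each, on a log2 axis of FPKM + 1, as deposited (points and solid lines) and after median-ratio scaling (dotted). Fmo2 and Fmo1 cross between E18.5 and P28, Cyp2e1 peaks at E18.5, Cyp4b1 is near 0 before birth, and Gstm1 and Ces1d reach their highest value at P28.

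Aldehyde oxidases, molybdenum enzymes that oxidise aldehydes and nitrogen rings, stayed under 1 FPKM until P28. Aox3 was at 0.131 FPKM (E16.5), 0.281 (E18.5), 0.817 (P7) and 18.6 (P28), a log2 difference of 3.43 for P28 against P7. Its neighbour on chromosome 1, Aox1, was at 0.325 FPKM or less in the first 3 libraries and at 3.71 at P28.

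Of 18 carboxylesterase symbols 2 passed. Ces1d, which splits drug esters and also stored triglyceride, was at 0.838 FPKM (E16.5), 3.39 (E18.5), 7.89 (P7) and 89.9 (P28). Its difference between P28 and E16.5 was 5.63 on the log2 scale (5.60 after scaling). Ces2g was at 0.126, 0.586, 3.08 and 14.9 FPKM. Both had their highest value at P28. After scaling Ces1d was level between E18.5 and P7, at 5.83 and 5.71. Carboxylesterase genes are close copies, so the split of reads between them is uncertain.

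Ephx1, the microsomal epoxide hydrolase that opens reactive epoxides left by P450s, was at 0.233, 0.502, 7.71 and 22.7 FPKM in order of age. Both postnatal libraries stood above both fetal ones, with log2 differences of 2.53 for P7 against E18.5 and 1.45 for P28 against P7. The soluble form Ephx2, which hydrolyses epoxides of fatty acids, stayed under 1 FPKM.

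Glutathione transferases were the best represented family, with 15 of 21 symbols past the minimum and 11 at 5 FPKM or more. They summed to 92.0 FPKM (E16.5), 64.2 (E18.5), 160 (P7) and 597 (P28). At P28 against P7, 8 of the 15 were at least 2-fold higher and 0 lower, on both scales. The rule called 5.95% of all genes higher and 9.57% lower (7.4% and 5.21% after scaling). Of the 15, Gsta3, Gstm4 and Gstt2 had passed the 1 FPKM minimum at P28 alone.

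The mu class was led by Gstm1, which conjugates epoxides and quinones. It was at 17.8 FPKM (E16.5), 16.8 (E18.5), 79.0 (P7) and 290.4 (P28), and made up 19.3%, 26.2%, 49.3% and 48.6% of the family in order of age, so its share was as high at P7 as at P28. Gstm2 was at 12.4, 8.90, 17.3 and 56.1 FPKM. Gstm5 had no such increase at P28, at 9.84, 10.1, 6.42 and 8.06 FPKM, so the ratio of Gstm1 to Gstm5 inside each library was 1.81, 1.67, 12.3 and 36.0. Gstm7 lay between 2.97 and 7.39 FPKM, and Gstm4 and Gstm6 did not exceed 2.19. The 6 genes lie within 149 kb on chromosome 3 (GRCm38, 107895821 to 108044894) and are close copies, so reads may be split unevenly between them.

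In the alpha class, Gsta3, which detoxifies the epoxide of aflatoxin in the mouse, was at 0.0813 FPKM (E16.5), 0.105 (E18.5), 0.966 (P7) and 38.2 (P28). P28 alone was high, with a log2 difference of 4.32 against P7. Gsta4, specialised for the lipid peroxidation product hydroxynonenal, was at 11.3, 4.08, 11.6 and 70.8 FPKM.

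The theta class acts on small halogenated solvents, among other compounds. Its members Gstt1 and Gstt3 were at 5.94, 3.73, 14.8 and 50.9 and at 0.904, 0.613, 1.35 and 11.4 FPKM. Gstk1 of mitochondria and peroxisomes was at 7.33, 7.78, 10.3 and 27.5 FPKM. Gsto1, an omega form with thioltransferase activity, was high at both ends, at 13.0 FPKM (E16.5), 2.85 (E18.5), 4.32 (P7) and 18.0 (P28), and was 1 of 2 members lower at P7 than at E16.5, with Cyp1b1. All 8 leukocyte markers were also lower at E18.5 and at P7 than at E16.5, and 7 of 8 (all but Lyz2) at P28, and their part in the level of Gsto1 at E16.5 was not tested. Gstz1, which acts in tyrosine breakdown, had its highest value at P28, at 9.18 FPKM, as did Gstp1 (4.70) and Gstt2 (1.42).

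Of 18 sulfotransferase symbols 2 passed, and both, like Fmo2, had higher values at E18.5 and P28 than at E16.5 and P7. Sult1a1, which sulfates phenols, was at 1.70 FPKM (E16.5), 9.60 (E18.5), 2.88 (P7) and 10.7 (P28). Its log2 differences were 1.98, -1.45 and 1.60 between successive ages. Sult5a1 was at 1.16, 3.25, 1.27 and 9.24 FPKM. Its differences of 0.98 for E18.5 against E16.5 and -0.91 for P7 against E18.5 were called only after scaling (1.72 and -1.78). For Sult1a1, as for Fmo2, scaling put E18.5 above P28, at 16.5 against 9.93. The summed alveolar type 2 markers were also higher at E18.5 and P28 than at E16.5 and P7, and their part in the levels of both genes was not tested.

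UDP-glycosyltransferases were scarce: 2 of 21 symbols passed and none reached 5 FPKM. Ugt1a6a, which conjugates small phenols, was at 0.128 FPKM or less in the first 3 libraries and at 4.26 at P28, and Ugt1a7c was highest at E16.5, at 1.43. These variants of the Ugt1a locus share their last exons, so the split between them is uncertain.

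P28 values stand beside the epithelial markers of that library. From P7 to P28 Scgb1a1 went from 26.2 to 19258 FPKM, Cyp2f2 from 0.443 to 283 and the type 2 cell surfactant gene Sftpc from 15.5 to 10149, and Krt5 was the 1 airway marker listed at 0 at P28. Of the 8 fibroblast markers 4 (Dcn, Mfap4, Tcf21 and Fn1) were higher at P28 than at P7, with a median log2 difference over the 8 of 0.86, while Pdgfra, Col1a1, Col1a2 and Col3a1 lay between 0.29 and 0.73 (after scaling Pdgfra was also called higher). Club cells are known to express Cyp2a5, Cyp2b10, Cyp2s1, Cyp4b1, Ephx1 and Gsta3. Without these 6 genes, a set chosen after the values were seen, 36 members remained. Of these, 16 were higher at P28 than at P7, beside 5.95% of all genes, and 15 higher than at E16.5, beside 10.1%. Their summed level at P28 was 8.11 times that at E16.5. Other members can also come from epithelium, and the part of epithelial RNA in their P28 levels was not tested.

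**Figure D4:**
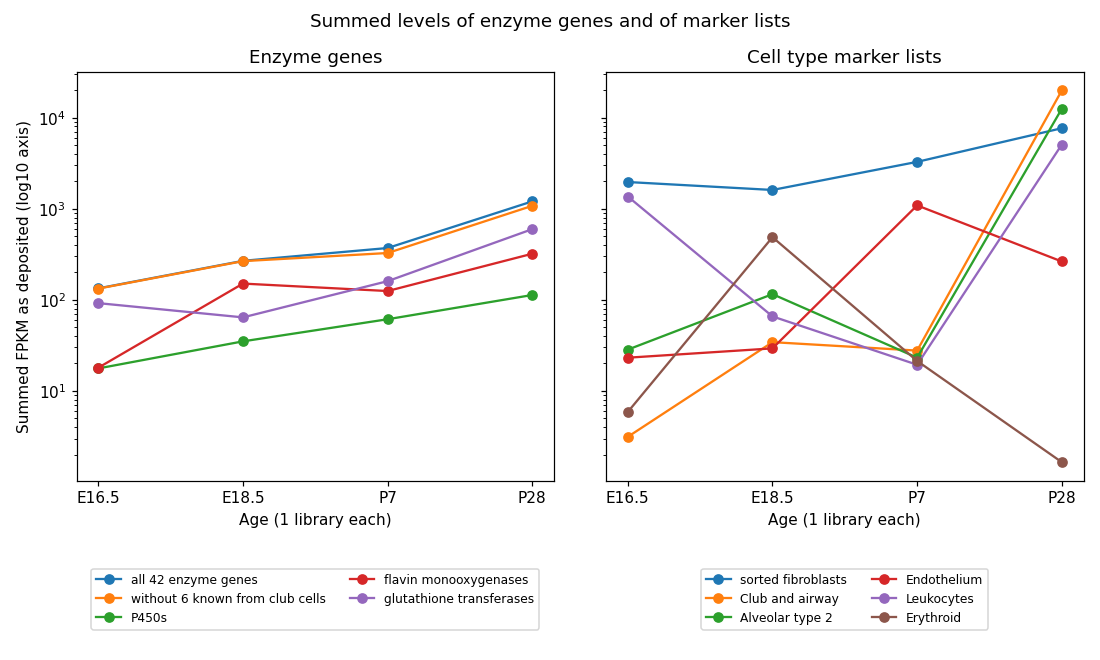
Summed deposited FPKM by age on a log10 axis, 1 library per point, for the enzyme genes (left) and for marker lists of fibroblasts and of other cell types (right). The sum of all 42 enzyme genes goes from 134 FPKM at E16.5 to 1205 at P28, while club and airway markers go from 3.13 to 19892; the leukocyte sum at P28 is almost all Lyz2, which type 2 cells also express.

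Other genes of the pathway were taken from lists of 76 genes, of which 65 reached 1 FPKM. At P28 against E16.5, 16 were higher and 4 lower (18 and 3 after scaling), and at P28 against P7, 11 were higher and 3 lower (14 and 3). The shares of all genes called were 10.1% and 9.51% (10.4% and 7.92% after scaling) in the former and 5.95% and 9.57% (7.4% and 5.21%) in the latter, so the lower counts were near or under the share of all genes. Of 9 genes for electron supply and haem, 3 were higher and 0 lower at P28 against P7. They were Por, the reductase that passes electrons to all microsomal P450s, at 9.45, 10.8, 21.8 and 48.5 FPKM in order of age, Alas1, which starts haem synthesis, at 4.03, 3.99, 9.78 and 21.3, and the adrenodoxin gene Fdx1, at 6.18, 4.66, 5.41 and 12.8.

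In the glutathione list 2 of 9 genes were higher at P28 than at P7 and 0 lower. Of all genes 5.95% were higher and 9.57% lower between these libraries (7.4% and 5.21% after scaling). Gclc, the catalytic subunit of the enzyme that limits glutathione synthesis, was at 4.27, 1.03, 7.71 and 31.0 FPKM, and the microsomal transferase Mgst1 at 5.85, 4.56, 5.60 and 55.0. The modifier subunit Gclm was at 7.72 FPKM at P7 and 4.31 at P28, under the 2-fold limit. Among 16 aldehyde, carbonyl and quinone enzymes 3 were higher and 0 lower (5 and 0 after scaling), led by Aldh1a1, which makes retinoic acid, at 8.21 and 589 FPKM, and Cbr2, a carbonyl reductase of lung epithelium, at 1.78 and 1026. The quinone reductase Nqo1, a standard target of Nfe2l2, stayed between 0.588 and 1.37 FPKM, and Nfe2l2 itself was at 43.0, 34.0, 40.0 and 74.2. In the list of methyl and acetyl transferases with sulfate and sugar donors, 2 of 11 genes were higher at P28 than at P7 and 0 lower, on both scales. They were Inmt, at 0.169, 1.06, 2.27 and 1272 FPKM in order of age, and Papss2, at 3.49, 1.00, 1.60 and 15.0.

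Of 11 measured sensors and regulators 0 were higher and 1, Ahr, was lower at P28 than at P7 (1 and 1 after scaling), a share close to the 9.57% of all genes that were lower. The nuclear receptor genes Nr1i2 and Hnf4a, which drive these enzymes in liver, were at 0.104 FPKM or less in every library. Among 9 transport carriers, 1 was higher and 2 lower at P28 than at P7, beside 5.95% and 9.57% of all genes. Scaling gave the same counts, beside 7.4% and 5.21%. The lower ones were the drug pump Abcg2, at 8.03, 3.95, 15.0 and 4.48 FPKM in order of age, and Abcb1a. Abcb1a, the pump of the blood-brain barrier endothelium, was at 0.0606, 0.227, 7.75 and 1.92. The 8 endothelial markers summed to 23.2, 29.3, 1088 and 264 FPKM, and their part in the level of either pump was not tested.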

How the data were processed

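Lung fibroblasts sorted for Pdgfra were profiled by RNA-seq at 4 ages, 1 library each. The authors deposited 1 table of FPKM for 23931 rows. The submitters' processing notes name TopHat2 2.0.9 and GRCm38 (mm10). The program that estimated FPKM, and its annotation, are not given in the sources used here. Per the values, the smallest positive FPKM has a log10 of -256, as estimates from a model can, so a listed 0 may be a failed estimate. Read totals per library are unknown, and relative depth was estimated from the most frequent ratio between libraries of values under 0.1 FPKM. For 1 member, counted with the others, values are not reported here.

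Rows that share a symbol were summed (258 symbols, none of them a member). Members, lists and thresholds were chosen with earlier results of these data known. Differences are of log2(FPKM + 1), called at 2-fold with the higher library at 5 FPKM or more, and no test was run. Median-ratio factors came from 7930 symbols at 1 FPKM or more in all 4 libraries. Every member at 5 FPKM or more could be named, and lower ones by their highest value. Alternatives were median-ratio and upper-quartile scaling, pseudocounts of 0.1 and 5, minimums of 1 and 20 FPKM, and leaving out symbols with several rows. The code was tested on simulated data. Gene positions came from GENCODE M21 (GRCm38) and promoters from RefSeq (GRCm38.p6). Python 3.11.15, numpy 2.4.6, pandas 2.3.3 and matplotlib 3.10.9 were used.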

Additional observations from a re-analysis of the deposited data

How the results depend on the processing

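The counts at P28 were the same, 20 higher and 0 lower, under both scalings, with a pseudocount of 0.1 FPKM and without symbols that have several rows. With a pseudocount of 5 FPKM 17 were higher at P28 against P7 and 20 at P28 against E16.5. With the higher library at 20 FPKM or more, 10 members were higher at P28 against P7, 12 at P28 against E16.5, and 10 had their highest value at P28 (13 with 5 FPKM in 2 or more libraries); at the other comparisons 1 was higher and 0 lower at E18.5 against E16.5, 3 higher and 1 lower at P7 against E18.5, and 3 higher and 0 lower at P7 against E16.5. With a minimum of 1 FPKM, 11 members were higher at P7 against E18.5. For E18.5 against E16.5, median-ratio scaling gave 8 higher and 1 lower, upper-quartile scaling 10 higher and 0 lower, and a pseudocount of 5 gave 1 lower. For P7 against E18.5 both scalings gave 3 higher. For P7 against E16.5 a pseudocount of 5 gave 0 lower. Ces1d at P7 against E18.5 changed sign, from 1.02 to -0.025 with median-ratio and -0.14 with upper-quartile scaling. The scaling factor of the E18.5 library and the fewer genes past a higher minimum are parts of these settings; further causes were not tested. Among 104 log2 differences of the 26 members at 5 FPKM or more, 56 were called, of which 5 were lost and 7 gained with median-ratio scaling, and 7 lost with a pseudocount of 5. No paired analysis was possible because there was 1 library per age. With read totals unknown, values near 0 cannot be ordered.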
